A study of Equus caballus with 6 samples.

Results

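Lumican (LUM, ENSECAG00000018248), decorin (DCN, ENSECAG00000020413) and asporin (ASPN, ENSECAG00000007047) are 3 small leucine-rich proteoglycans (SLRPs) among the 26992 entries of the deposited gene table, from which they were taken by identifier. The table gives normalized counts, the reads counted on a gene divided by the size factor of the library, for equine tenocytes in 2 groups of 3 libraries. Tenocytes, the resident fibroblasts of tendon, were isolated from superficial digital flexor tendon of 1 adult mare and were used at passage 3, so the replicates are repeats in the cells of 1 animal. One group was transfected with a siRNA that targets the equine mRNA of scleraxis (Scx), a transcription factor required for the formation of force-transmitting tendon. The other received a non-targeting scramble siRNA. All cells, controls included, were nucleofected with 10 nmol siRNA, grown on silicone membranes coated with collagen type I, and exposed to uniaxial cyclic strain of 1% at 0.5 Hz for 2 h a day on 3 days. The comparison addresses which transcripts of mechanically loaded tenocytes differ when Scx is targeted. The antisense strand of the siRNA, the reagent that separates the groups, is printed 5′ to 3′ with its seed (bases 2 to 8) in capitals.
Scx siRNA antisense strand: uCCUUGCUcaacuuucucugg

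SLRPs are secreted proteins built around a curved array of leucine-rich repeats that binds collagen. They sit on the surface of collagen fibrils and regulate how fibrils grow in width and how they are spaced. Decorin, a class I SLRP that carries a chondroitin or dermatan sulfate chain, is the main proteoglycan of tendon and also binds TGF-β. Asporin belongs to the same class, lacks the glycosaminoglycan attachment site of decorin, and competes with it for collagen. Lumican, a class II SLRP that can carry keratan sulfate, binds collagen at other sites. In the RefSeq gene table of assembly TB-T2T, LUM lies between KERA and DCN, and ASPN lies between ECM2 and OMD. These neighbours are themselves SLRP genes or relatives of them. Coordinates on the genome used for counting, EquCab2, were not used here.

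Reads counted on genes numbered 8181819 to 12213421 per scramble control library and 6539504 to 10255963 per Scx siRNA library. Genes with at least 1 read numbered 13151 to 13392 per scramble control library and 11026 to 11183 per Scx siRNA library. The second Scx siRNA library had more reads than the first 2 controls and still fewer such genes. The cause was not tested. Scx itself had too few reads to check each label. Its reads were 5, 7 and 25 in the scramble control libraries (0.611, 0.741 and 2.05 RPM) and 5, 0 and 0 in the Scx siRNA libraries, and the first of these, at 0.639 RPM, lay within the range of the controls. A count of 0 allows up to 0.293 and 0.459 RPM in the second and the third. The second Scx siRNA library stood apart from its replicates. The chi-square per degree of freedom between 2 libraries over genes was 121 and 128 for the pairs that include it, 26.4 for the other Scx siRNA pair, and 7.69 to 15.3 for scramble controls pairs. Values without the first or the second Scx siRNA library are therefore given below. The common dispersion, a measure of spread between replicates beyond counting error, was 0.0129 in scramble controls and 0.368 in Scx siRNA. The test across genes used below takes 1 variance per gene for both groups. Results with a weight for each group are in the closing section. Of the tenocyte markers, 9 of 11 had a read in every library and TNMD, a tendon membrane protein, was at 0 in all 6. The summed level of these markers without DCN was 169660 to 176669 normalized counts in scramble controls and 141192 to 165967 in Scx siRNA, so the groups did not overlap. With DCN, which is on the list, it was 222117 to 225903 and 224348 to 250893. The sum without DCN comes mostly from COL1A1, COL1A2 and COL3A1. Single markers went both ways. COL1A1, COL3A1 and COMP were lower in every Scx siRNA library than in any control, and DCN and PRRX1 were higher. The others did not separate the groups. Of all 11517 genes averaging 5 or more normalized counts, 25.8% were lower in that way and 22.3% higher. SELE, a gene of activated endothelium, was at 0 in all libraries and TNNI3K did not exceed 37.3 normalized counts. The study lists both among genes reported before as tendon-selective. They therefore do not settle whether endothelial or muscle cells were present. ACAN, the chondrocyte marker, had 435 to 568 normalized counts in scramble controls and 108 to 118 in Scx siRNA, and the fibroblast markers VIM and FAP summed to 91464 to 97184 and 129517 to 181592. The part of any change in cell makeup in the results was not tested, and in bulk RNA fewer cells of a type and less RNA per cell cannot be told apart.

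LUM, DCN and ASPN were all higher in tenocytes exposed to Scx siRNA, and all passed the test across genes. The increase was 2.35-fold for LUM, 1.66-fold for DCN and 2.83-fold for ASPN as ratios of the group means. Log2(normalized count + 1) was fitted with limma for 11517 genes averaging 5 or more normalized counts, and a gene was called at an adjusted p (Benjamini-Hochberg) under 0.05. Of all genes tested, 12.9% were called higher in Scx siRNA. LUM, DCN and ASPN were singled out with earlier results of these data known, so their 3 calls were not set against that share. In this fit none of the members reached the study's further limit, a log2 fold change of 1.5 in size. The limit was passed together with the adjusted p by 9.84% of the genes tested. ASPN was just above the limit with DESeq2 (1.504, adjusted p = 3.11e-07 from DESeq2), and above it in some limma fits with 1 library left out.

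LUM had 58425, 51110 and 58488 normalized counts in the scramble control libraries and 127867, 142414 and 124701 in the Scx siRNA libraries. The groups lay far apart, the lowest Scx siRNA library being 2.13 times the highest scramble control library, while replicates within a group differed by at most 1.14 times. The means were 56008 ± 4242 (SD, n = 3) for scramble control and 131661 ± 9447 (SD, n = 3) for Scx siRNA. The log2 fold change of LUM was 1.23 (standard error 0.22, 95% interval 0.71 to 1.75, adjusted p = 0.00951 from limma). LUM took 0.644% to 0.749% of all reads counted in a scramble control library and 1.33% to 1.39% in a Scx siRNA library. By reads it ranked 6 to 9 among the genes of a scramble control library and 1, 2 and 1 in the Scx siRNA libraries. Leaving out the first Scx siRNA library gave 1.25 (adjusted p = 0.0292), and leaving out the second gave 1.18 (adjusted p = 0.00301). LUM was no longer called without the first, the second or the third scramble control library, at adjusted p of 0.0587, 0.0879 and 0.0672, although its log2 fold change stayed at 1.27, 1.17 and 1.27. Quantile normalization, which forces the same distribution on every library, lowered it to 0.75 (adjusted p = 0.0434).

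DCN had 51163, 47407 and 52457 normalized counts in the scramble control libraries against 84926, 82634 and 83156 in the Scx siRNA libraries. The Scx siRNA libraries were nearly level with one another and all lay above the controls, the lowest at 1.58 times the highest control. The SD was 5.21% of the mean in scramble controls and 1.44% in Scx siRNA. With means of 50342 ± 2623 and 83572 ± 1201 (SD, n = 3 each), the log2 fold change of DCN was 0.73 (standard error 0.20, 95% interval 0.25 to 1.21, adjusted p = 0.0379 from limma). This was the weakest call among the members, and it was lost when the replicate number was added to the fit (adjusted p = 0.0839). The normalized counts of a whole library summed to 7810000 to 7980430 in scramble controls and 9033680 to 10221700 in Scx siRNA. Scaling to total reads gave 0.45 for DCN (adjusted p = 0.122), and cyclic loess normalization gave 0.33 (adjusted p = 0.189). The call was also lost without any 1 scramble control library (adjusted p = 0.139, 0.199 and 0.151 without the first, the second and the third) and without the first Scx siRNA library (adjusted p = 0.0852), while without the second it held at 0.74 (adjusted p = 0.0121). As a share of all reads counted, DCN took 0.598% to 0.672% in scramble controls and 0.808% to 0.921% in Scx siRNA, so that the groups did not overlap on that scale either.

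ASPN was the least abundant of the members in reads and had the largest fold change. Its normalized counts were 15633, 13854 and 12938 in the scramble control libraries and 36551, 53603 and 30037 in the Scx siRNA libraries. All Scx siRNA libraries lay above all controls, but they differed among themselves, the second being 1.78 times the third. The SD was 30.4% of the mean in Scx siRNA and 9.69% in scramble controls. The means were 14142 ± 1371 and 40064 ± 12169 (SD, n = 3 each), and the log2 fold change of ASPN was 1.46 (standard error 0.25, 95% interval 0.87 to 2.06, adjusted p = 0.00855 from limma). Without the second Scx siRNA library, the highest, it was 1.23 (adjusted p = 0.00177), and without the first it was 1.51 (adjusted p = 0.0264). The adjusted p was 0.0629 without the second and 0.0609 without the third scramble control library. In rank by reads ASPN moved from 40, 46 and 52 in the scramble control libraries to 17, 7 and 17 in the Scx siRNA libraries.

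**Figure D1:**
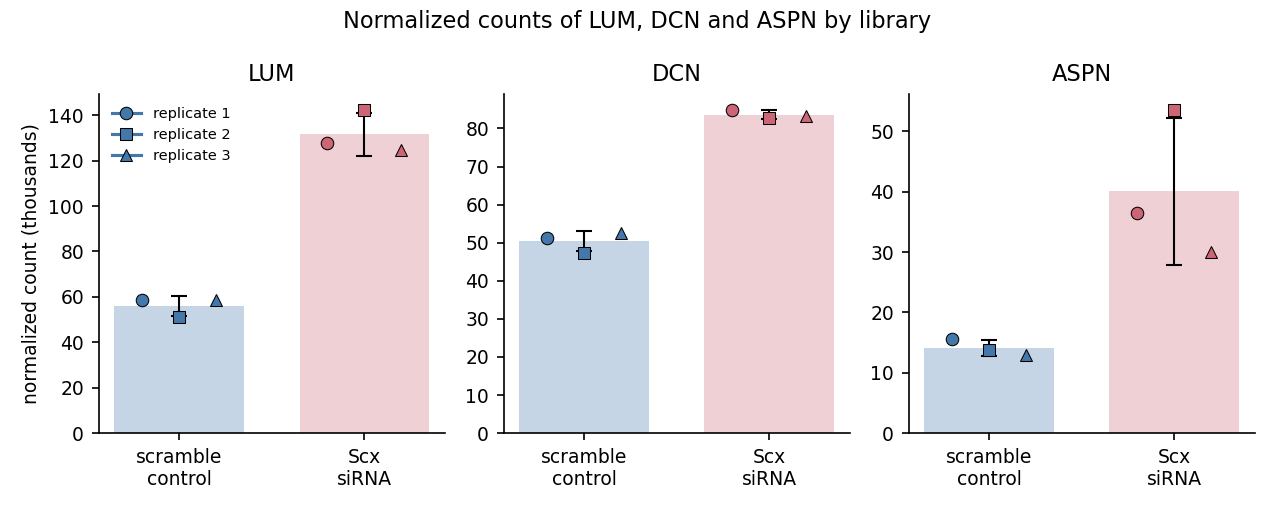
Normalized counts (in units of 1000, axes from 0) of LUM, DCN and ASPN in the 3 scramble control and 3 Scx siRNA libraries. Bars are group means, error bars the SD, and the marker shape gives the replicate number. The groups do not overlap for any of the genes, and the second Scx siRNA library is the highest for LUM and ASPN and the lowest of its group for DCN.

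Of all genes tested, 22.3% had every Scx siRNA value above all control values, as the members did, and 25.8% had every one below. The log2 fold change also varied with the level of expression in these libraries. Its median was -0.20 over all genes tested, -1.42 for 608 genes averaging 5 to 10 normalized counts, and 0.30 for 91 genes averaging 10000 or more, the class that holds the members. Of these 91 genes, 23 were called higher and 14 lower. By log2 fold change ASPN was number 6, LUM number 13 and DCN number 24 of the 91. Across all 11517 genes tested, 4.77% had a log2 fold change at least as high as that of ASPN, 7.57% as high as that of LUM and 18.9% as high as that of DCN. Relative to the median of the 91 most abundant genes, the log2 fold change was 1.16 for ASPN, 0.93 for LUM and 0.43 for DCN.

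**Figure D2:**
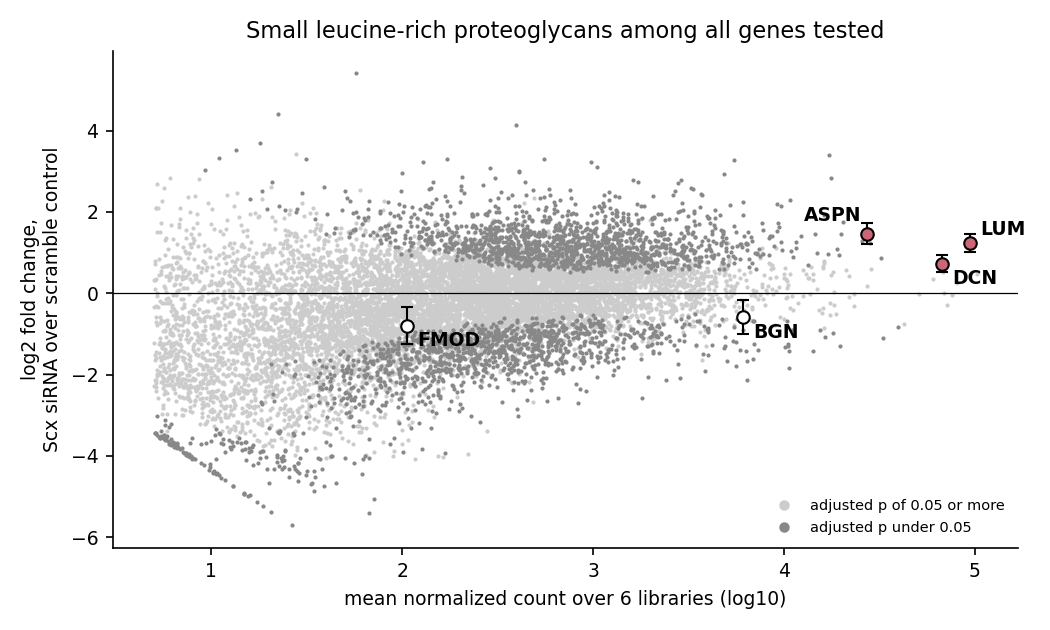
Log2 fold change (Scx siRNA over scramble control, limma) against the mean normalized count over the 6 libraries (log10 axis) for all 11517 genes tested. Dark grey points have an adjusted p under 0.05. Named points carry the standard error, filled for LUM, DCN and ASPN and open for BGN and FMOD, which were not called. The members lie at the right edge, above 0, at 1.23, 0.73 and 1.46.

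The 3 genes together took 1.42% to 1.59% of all reads counted in a scramble control library and 2.59% to 2.73% in a Scx siRNA library. Their summed normalized counts were 125221, 112370 and 123883 in scramble controls and 249344, 278651 and 237894 in Scx siRNA, a 2.12-fold difference of the means on the log2 scale. A two-sided exact permutation test gave p = 0.1, the smallest p that 3 libraries against 3 allow. The sum was thus clearly separated between the groups, while the test over libraries alone could not pass 0.05.

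In reads, the members did not rise in proportion. In scramble controls LUM held 46.7%, 45.5% and 47.2% of the reads of the 3 genes, and in Scx siRNA it held 51.3%, 51.1% and 52.4%. DCN went the other way, from 40.9%, 42.2% and 42.3% in the scramble control libraries to 34.1%, 29.7% and 35.0% in the Scx siRNA libraries. ASPN had 12.5%, 12.3% and 10.4% in scramble controls and 14.7%, 19.2% and 12.6% in Scx siRNA. DCN, although higher in normalized counts, thus had a smaller part of the reads of the 3 genes in all Scx siRNA libraries. For ASPN the gap was narrow, with the third Scx siRNA library at 12.6% just above the first scramble control library at 12.5%, and their 95% Wilson intervals (12.5% to 12.8% and 12.3% to 12.7%) overlapped. The mean share changed by 5.15 percentage points for LUM, -8.91 for DCN and 3.76 for ASPN. Without the second Scx siRNA library the change for ASPN was 1.89 percentage points. For each of the 3 shares the two-sided exact permutation test gave p = 0.1, the smallest possible, also after Benjamini-Hochberg adjustment over the 3 shares. Each gene had 16028 to 142892 reads in a library and the Wilson interval of a share was at most 0.546 percentage points wide. These intervals cover counting error only. The shares are shares of reads, and transcript lengths on EquCab2 were not used here, so they do not rank the genes by transcripts per cell.

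**Figure D3:**
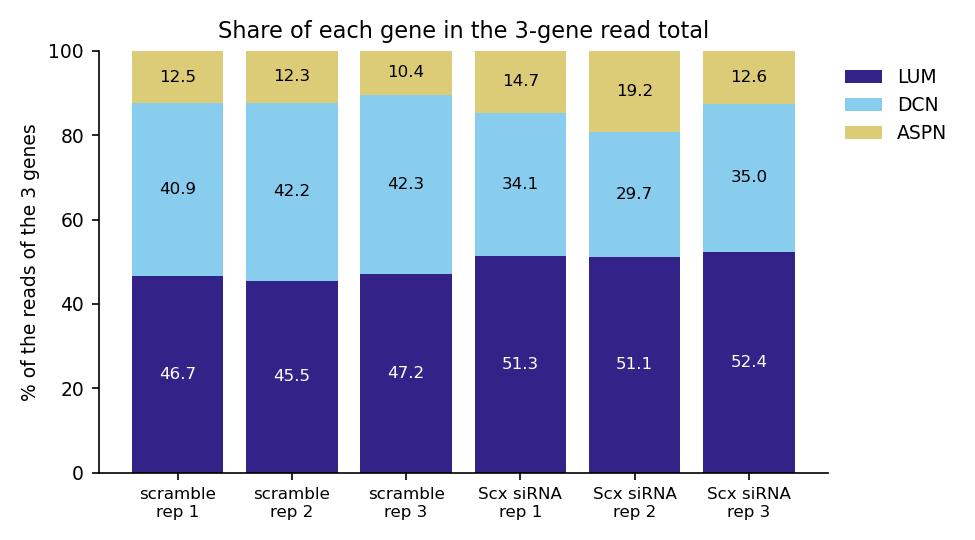
Share (%) of LUM, DCN and ASPN in the summed reads of the 3 genes, 1 stacked bar a library. LUM goes from 45.5% to 47.2% in scramble controls to 51.1% to 52.4% in Scx siRNA, and DCN from 40.9% to 42.3% to 29.7% to 35.0%.

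Ratios between members within a library were used to compare the size of the changes. They are free of a scaling factor common to a library, but not of effects that vary with the level of expression. With quantile normalization the log2 fold changes of LUM, DCN and ASPN were 0.75, 0.58 and 1.22. With cyclic loess normalization they were 0.84, 0.33 and 1.06, so the gaps between members differed between these settings. The log2 ratio of LUM to DCN reads was 0.19, 0.11 and 0.16 in scramble controls and 0.59, 0.79 and 0.58 in Scx siRNA. It was therefore 0.50 higher in Scx siRNA, a 1.42-fold change in the number of LUM reads for each DCN read. The log2 ratio of ASPN to DCN was -1.71, -1.77 and -2.02 in scramble controls and -1.22, -0.62 and -1.47 in Scx siRNA, a difference of 0.73 or 1.66-fold. The groups did not overlap for either ratio. For each, the two-sided exact permutation test gave p = 0.1 and 0.15 after adjustment over the 3 ratios compared. Without the second Scx siRNA library the difference was 0.44 for LUM to DCN and 0.49 for ASPN to DCN. The ratio of ASPN to LUM did not separate the groups. It was -1.90, -1.88 and -2.18 in scramble controls and -1.81, -1.41 and -2.05 in Scx siRNA on the log2 scale, the third Scx siRNA library lying below 2 of the controls. The difference of 0.23 had a two-sided exact permutation p of 0.4, and without the second Scx siRNA library it was 0.06.

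**Figure D4:**
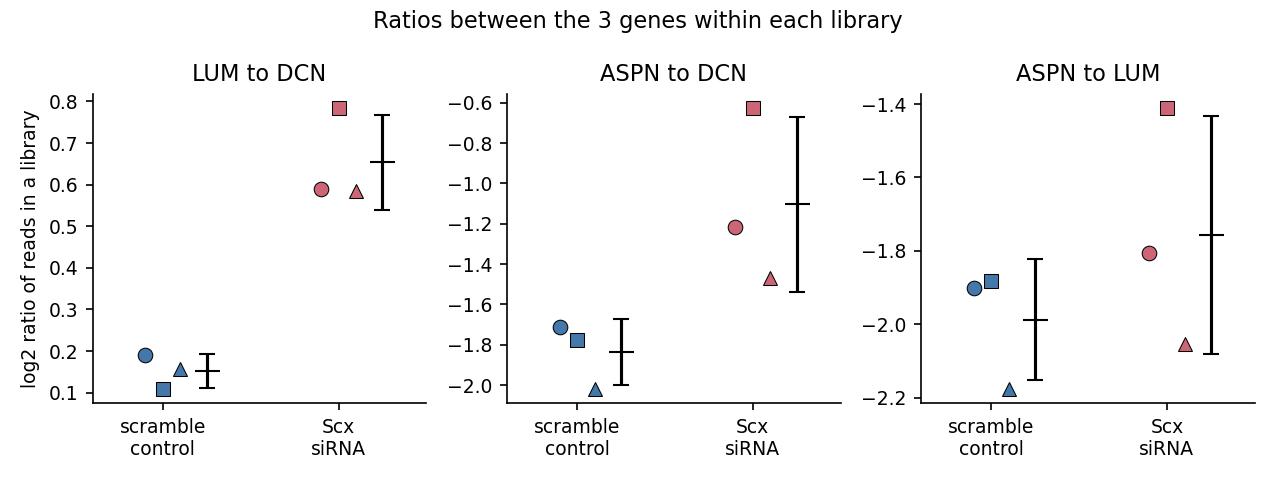
Log2 ratio of reads between 2 of the 3 genes within each library, for LUM to DCN, ASPN to DCN and ASPN to LUM. Marker shape gives the replicate number, and the line with bars beside the points the mean and SD (n = 3). The groups are separate for both ratios to DCN and overlap for ASPN to LUM, where the difference is 0.23.

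An identifier could be paired with 3 other SLRP genes, and none of them was called. Of the 6 SLRP genes, 5 were abundant enough to test, 3 were called higher and 0 lower. These 3 are the members, singled out with earlier results known, so the count and the median over the 5 genes reflect that choice. Of all genes tested, 12.9% were called higher, and the count was not tested against that share. The other 2 genes tested, biglycan and fibromodulin, were not called. Without the first, the second or the third scramble control library, 1, 0 and 0 SLRP genes were called higher. The median log2 fold change was 0.73 over the 5 genes and -0.69 over biglycan and fibromodulin, against -0.20 for all genes tested. Without the second Scx siRNA library the median over biglycan and fibromodulin was -0.22, close to the -0.14 of all genes tested in that fit. Biglycan (BGN, ENSECAG00000018717), the class I SLRP closest to decorin, had 6838, 6957 and 7095 normalized counts in scramble controls and 7215, 2268 and 6169 in Scx siRNA. Its groups overlapped and only the second Scx siRNA library was far from the controls. The log2 fold change of BGN was -0.58 (standard error 0.41, 95% interval -1.54 to 0.38, adjusted p = 0.324 from limma), and -0.06 without that library. Fibromodulin (FMOD, ENSECAG00000017864), a class II SLRP of tendon that like lumican binds collagen type I, had 122, 95.7 and 180 normalized counts in scramble controls and 89.9, 40.9 and 108 in Scx siRNA. The groups overlapped here too, and the log2 fold change of FMOD was -0.79 (standard error 0.46, 95% interval -1.87 to 0.28, adjusted p = 0.236), and -0.38 without the second Scx siRNA library. The library in which BGN and FMOD were lowest was the one in which LUM and ASPN were highest. Keratocan (KERA, ENSECAG00000017668), best known from cornea, had 1, 3 and 4 reads in scramble controls and 12, 7 and 0 in Scx siRNA, too few for the test across genes. Compared by normalized counts, KERA had a two-sided exact permutation p of 0.4. The difference in log2 fold change between the members and BGN or FMOD was not tested.

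Of 23 genes for collagens, growth factors, glycoproteins and proteases that share the matrix with SLRPs, 22 were tested, of which 2 were called higher and 8 lower with Scx siRNA. Among all genes tested, 12.1% were called lower. Without any 1 scramble control library, 2 partner genes were called lower and 1 higher, and 1 was called higher without the first Scx siRNA library. The 2 called lower were COL5A1 and ACAN, so TGFB3, TNC, COMP and MMP2, like COL1A1 and COL6A3, lost their calls in these fits. COMP was not called without the first Scx siRNA library either (adjusted p = 0.0579 from limma). The partner genes' 22 log2 fold changes had a median of -0.80, against -0.20 for all genes tested. Without the second Scx siRNA library these medians were -0.62 and -0.14. The list was drawn up with earlier results known and says nothing about matrix genes in general. Among 6 collagen genes 3 fell and 0 rose. COL5A1, a chain of the collagen that starts fibrils, fell by 1.62 on the log2 scale (limma standard error 0.23, adjusted p = 0.00495). COL1A1, a chain of the main fibrillar collagen of tendon, fell by 1.06 on the log2 scale (standard error 0.23, adjusted p = 0.0178), and COL6A3, a chain of the beaded filaments around cells, by 0.82 (standard error 0.19, adjusted p = 0.0219). The COL6A3 call was lost when every gene above 0 was tested (adjusted p = 0.0830) and with group weights (adjusted p = 0.0708), and COL1A1 and COL6A3 were not called without any 1 scramble control library. COL1A2 and COL3A1, at 0.01 and -0.30 (adjusted p = 0.971 and 0.368), were not called. COL3A1 was called only with cyclic loess normalization (-0.69, adjusted p = 0.0442), and the sign for COL1A2 turned with TMM scaling, scaling to total reads, quantile and cyclic loess normalization.

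The growth factor genes on the list, TGFB1 and TGFB3, had lower values in every Scx siRNA library than in any control. The same held for 25.8% of all genes tested. TGFB3 had 3173, 3344 and 3482 normalized counts in scramble controls and 1847, 1189 and 1897 in Scx siRNA, and fell by 1.05 on the log2 scale (standard error 0.21, adjusted p = 0.0146 from limma). TGFB1 had 445, 411 and 423 normalized counts against 247, 69.8 and 312, a log2 fold change of -1.27 (standard error 0.53) that was not called (adjusted p = 0.118). Its spread in Scx siRNA came from the second library, without which the log2 fold change of TGFB1 was -0.61 (adjusted p = 0.0232).

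Of the 7 glycoprotein and elastic fibre genes, TNC and COMP fell, by 0.78 and 0.92 on the log2 scale (adjusted p = 0.0217 and 0.0241 from limma), and 5 were not called. COMP encodes a pentameric protein that, like the SLRPs, binds collagen fibrils, and TNC encodes tenascin-C, an adhesion-modulating protein of loaded tendon. ACAN, the core protein of aggrecan, the large proteoglycan of cartilage and compressed tendon, fell by 2.10 on the log2 scale, the largest fall of the list (standard error 0.22, adjusted p = 0.00281). Aggrecan, a proteoglycan of another family, thus moved opposite to LUM, DCN and ASPN. Among the 6 proteases tested, FAP rose by 1.75 on the log2 scale (standard error 0.20, adjusted p = 0.00308). MMP13, a collagenase, rose by 0.85 (standard error 0.22, adjusted p = 0.0286), but was not called with scaling to total reads (0.57, adjusted p = 0.0605), quantile normalization (0.44, adjusted p = 0.109) or cyclic loess normalization (0.48, adjusted p = 0.0881), nor without any 1 scramble control library or the first Scx siRNA library. MMP2, a gelatinase, fell by 0.89 (standard error 0.25, adjusted p = 0.0380). MMP3, HTRA1 and CTSK were not called.

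The genes whose profile over the 6 libraries was nearest to each member were looked for among those averaging 100 or more normalized counts, by the mean absolute difference of log2 values, each taken relative to the gene's own scramble control mean. Only genes whose identifier could be paired with a symbol were named. For ASPN the nearest of these was DTWD1, at 0.06 on the log2 scale, and only 1 of the 7573 genes compared was nearer. DTWD1 had 1245, 1092 and 935 normalized counts in scramble controls and 2903, 4098 and 2484 in Scx siRNA, the same order of libraries within each group as ASPN. EIF4G2 followed at 0.11 (36 genes nearer) and ANXA1 at 0.17 (163 genes nearer). For LUM the nearest were ANXA1 at 0.09 (20 genes nearer), EIF4G2 at 0.11 (43 genes nearer) and ASPN at 0.20 (403 genes nearer). For DCN they were TPT1 at 0.14 (247 genes nearer), MMP13 at 0.19 (600 genes nearer) and CTNNB1 at 0.19 (601 genes nearer). LUM, next to DCN in the genome, was at 0.27 from it with 1337 genes nearer. The profiles of DCN and ASPN were farther apart, at 0.43. ANXA1 encodes annexin A1, a phospholipid-binding protein, EIF4G2 a translation initiation factor, TPT1 the translationally controlled tumor protein and CTNNB1 β-catenin.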

How the data were processed

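Polyadenylated RNA of 6 equine tenocyte libraries was sequenced. The authors used Trimmomatic for trimming, HISAT2 (2.0.3 in the submitters' processing notes) for alignment to EquCab2, and HTSeq for counting on Ensembl genes. The deposited values, a signal per gene, are these counts divided by each library's DESeq2 size factor, with an added entry for the Scx mRNA. Strand setting and treatment of reads shared between genes were not given in the sources used here. The deposited comparison columns (fold change, its error, test statistic and p-values) were not used.

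Each column was assigned by the sample number in its name. All values (100%) were whole multiples of the value of 1 read (tolerance 0.05 reads), which gave reads per gene. Shares and ratios use these reads. Genes averaging 5 or more normalized counts were fitted in limma 3.58.1 (R 4.3.3) as log2(normalized count + 1) (eBayes with trend, two-sided, no covariates). Exact permutation tests served for single values (scipy 1.17.1). The members and lists were chosen with earlier results of these data known. Named are the members, the other SLRP genes with an identifier, called genes of the partner list with a fixed few of its other genes, and for each member the 3 nearest named genes. The replicates are repeats in cells of 1 horse, so p-values measure the spread between repeats. Symbols came from the tables published with the data. The reference gene table matched 1 entry, Scx, so GC content, transcript length, protein and promoter sequence, and SLRP genes, glycosaminoglycan enzymes and cell type markers without a paired identifier were not analysed here. Alternatives, edgeR 4.0.16 and DESeq2 1.42.0 on the recovered reads among them, are in the closing section.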

Additional observations from a re-analysis of the deposited data

How the results depend on the processing

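LUM, DCN and ASPN kept a positive log2 fold change under all 12 alternatives with every library (pseudocount 0.5 or 8, every gene above 0, a mean of at least 50, TMM scaling, scaling to total reads, quantile and cyclic loess normalization, group weights, edgeR, DESeq2, and a replicate block) and without each library in turn. With every library kept, ASPN ran from 1.06 to 1.504, the highest value coming from DESeq2, and was called throughout. LUM ran from 0.75 to 1.23 and missed the threshold when every gene above 0 was tested (1.23, adjusted p = 0.0649). DCN ran from 0.33 to 0.73 and missed it when every such gene was tested (0.73, adjusted p = 0.180), with scaling to total reads (0.45, 0.122), quantile normalization (0.58, 0.112), cyclic loess normalization (0.33, 0.189), group weights (0.73, 0.135) and the replicate block (0.73, 0.0839). Testing every gene called 1 SLRP gene higher. The matrix partner genes called higher were 1 with scaling to total reads and with quantile or cyclic loess normalization, the gene lost being MMP13. Partner genes called lower, 8 as reported, were 6 when every gene above 0 was tested (COL6A3 and MMP2 lost), 6 with group weights (COL6A3, TNC and COMP lost, TGFB1 gained) and 7 with the replicate block (COL6A3 lost, adjusted p = 0.0526). They were 9 with quantile and 10 with cyclic loess normalization. Of the partner genes called, COL5A1, ACAN and FAP were called under every alternative and without each library. The cause of these losses and gains was not tested.

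Leaving out 1 library gave log2 fold changes of 1.17 to 1.27 for LUM, 0.69 to 0.76 for DCN and 1.23 to 1.65 for ASPN. SLRP genes called higher then ran from 0 to 3, partner genes called higher from 1 to 2 and partner genes called lower from 2 to 10. The lowest counts came without a scramble control library (for partner genes called higher also without the first Scx siRNA library). Without a scramble control library, calls over all genes fell from 2882 to between 476 and 853. The differences of the within-library values ran from 1.02 to 1.13 for the 3-gene total (log2), 0.44 to 0.54, 0.49 to 0.91 and 0.06 to 0.38 for the log2 ratios LUM to DCN, ASPN to DCN and ASPN to LUM, and 4.67 to 5.53, -9.94 to -7.29 and 1.89 to 5.20 percentage points for the shares of LUM, DCN and ASPN. The 3-gene total differed by 1.03 with TMM scaling and 0.80 with scaling to total reads.

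With 3 libraries a group, pairing could not be decided. Deviations from group means correlated at -0.08, 0.02 and 0.17 for equal replicate numbers. The replicate block took 2882 calls to 2117. Exact sign flips over 3 pairs gave p = 0.25, the smallest possible, for the 3-gene total and each ratio and share.

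The log2 fold change of COL1A2 was below 0 with TMM scaling (-0.038), scaling to total reads (-0.27), quantile (-0.25) and cyclic loess normalization (-0.38) and edgeR (-0.011), and ran from -0.064 to 0.16 with 1 library left out. The median of all genes tested shifted by -0.28 with scaling to total reads and by 0.19 and 0.16 with quantile and cyclic loess normalization, and relative to that median DCN stood at 0.94 in the reported fit, 0.93, 0.60 and 0.38. Scaling to total reads made 31.7% of all calls higher, against 51.6%. Shares per protein length were not run.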

Other observations

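The balance of SLRP to collagen reads was computed after the values had been seen. For 100 reads of COL1A1, COL1A2 and COL3A1 together, a scramble control library had 73.7, 65.5 or 75.2 reads of LUM, DCN and ASPN, and a Scx siRNA library 155, 203 or 175. This ratio lies within a library and needs no scaling factor between libraries, but effects that vary with the level of expression do not cancel in it. It was 2.48-fold higher in tenocytes exposed to Scx siRNA (1.31 on the log2 scale, from 1.21 to 1.40 with each library left out in turn), with a two-sided exact permutation p of 0.1, the smallest that 3 libraries against 3 allow. The second Scx siRNA library had both the most reads of the 3 SLRP genes per collagen read and the fewest normalized counts of BGN and FMOD.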
